A study of Homo sapiens with 16 samples.

Results

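Interferon-stimulated genes are the genes that cells switch on when type I or type III interferon reaches them, and 36 of them were followed here in 16HBE cells, a transformed line of human bronchial epithelial cells. They were chosen by symbol from both deposited tables, which together listed 25934 symbols (18632 at 3 h and 24570 at 6 h). All 36 were listed at both times, and 35 passed the filter of a mean of at least 1 TPM (an abundance of transcripts per length, scaled to one total per library) at each time. The exception was IFI44L, a gene of unsettled function, with a mean of 0.0617 TPM over the 16 libraries. The cells had been exposed for 3 h or 6 h to D. rotundifolia 3×, a decimal dilution of an ethanolic extract of the sundew Drosera rotundifolia, or to Ctrl, the matching dilution without the plant. All groups shared the line, the low-serum medium and passages of the same range, and each of the 4 groups had 4 libraries. The 3 h and 6 h cultures were separate experiments, each with its own Ctrl. A single cell line stands for the bronchial epithelium here, with no other cell type, no infection and no added interferon.

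Interferons signal through receptor-bound JAK kinases, which phosphorylate STAT proteins, STAT2 among them. STAT2 acts with IRF9 in a complex that binds the interferon-stimulated response element (ISRE) of target promoters, and the gamma-activated site (GAS) is the other promoter element of interferon signalling. The induced proteins sense viral RNA, block its translation, degrade it, or attach the ubiquitin-like ISG15 to other proteins, and airway epithelium is known to make both interferon beta and the lambda interferons itself.

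The letters of these elements were looked up in the RefSeq promoter windows (GRCh38.p14, 250 bases before to 50 bases after each start) of the 30 members that had an entry. IRF7, OAS2, OASL, IFIT2, USP18 and TRIM22 had none. The ISRE core was searched as GAAANNGAAA on both strands (TTTCNNTTTC when read on the gene's strand), and 21 of the 30 members held it in a window, against 3.57% of all 35116 windows. STAT2, IRF9, IRF1, DDX58, OAS1, UBE2L6, HERC6, IFI35 and XAF1 held none in these windows. The GAS core TTCNNNGAA, which reads the same on both strands, was in 7.66% of all windows and in 10 of the 30 members. IRF1, the interferon-regulated factor with a textbook GAS, was among these. The stretches below are upstream of the RefSeq start and hold no annotated exon of the gene. They are shown for IFIT1, IFIT3 and HERC5, which carried the replicate pattern at 3 h, for SAMD9 and IRF1, whose uncalled changes at 6 h had opposite signs, and for ISG15 and IFI6 as strongly expressed members. Capitals mark every match of the ISRE core, and in IRF1 the match of the GAS core.
IFIT1, chr10:89392482-89392545, plus strand: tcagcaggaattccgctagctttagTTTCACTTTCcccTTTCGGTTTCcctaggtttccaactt
IFIT3, chr10:89327816-89327909, plus strand: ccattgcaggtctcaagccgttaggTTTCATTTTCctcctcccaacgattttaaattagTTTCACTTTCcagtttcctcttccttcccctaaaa
HERC5, chr4:88456969-88457079, plus strand: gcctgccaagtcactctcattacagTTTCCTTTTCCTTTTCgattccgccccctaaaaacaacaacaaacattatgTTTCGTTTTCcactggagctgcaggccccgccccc
ISG15, chr1:1013359-1013424, plus strand: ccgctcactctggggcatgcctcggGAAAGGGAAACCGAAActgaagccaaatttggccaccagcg
SAMD9, chr7:93118081-93118140, minus strand: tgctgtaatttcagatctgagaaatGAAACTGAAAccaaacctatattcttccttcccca
IFI6, chr1:27672251-27672373, minus strand: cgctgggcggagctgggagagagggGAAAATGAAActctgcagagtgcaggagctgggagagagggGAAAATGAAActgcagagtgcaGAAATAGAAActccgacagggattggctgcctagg
IRF1, chr5:132490864-132490922, minus strand: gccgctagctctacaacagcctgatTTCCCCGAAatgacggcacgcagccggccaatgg
IFIT1 and IFIT3 held 2 matches each, the 2 matches of ISG15 overlapped, and HERC5 and IFI6 held 3 matches each. The first capital lay 116 bases before the start in IFIT1, 113 in ISG15 and 124 in IRF1. A match is a run of letters and not a measured binding site.

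Most of these interferon-stimulated genes were expressed in the cultures of all groups. BST2 (tetherin), which holds budding virus particles at the cell surface, had the highest mean over the 16 libraries, with 341 TPM. ISG15 followed with 236 TPM, then UBE2L6, the conjugating enzyme of the ISG15 pathway, with 124 TPM, IFI35 with 84.4 TPM and IFIT3 with 76.6 TPM. The Ctrl mean was at least 10 TPM for 27 of the 35 tested members at 3 h and for 29 at 6 h. The lowest tested member was IFITM1, a membrane protein that hinders viral entry, with 1.72 TPM. The epithelial label was met by its markers, since all 7 (EPCAM, CDH1, KRT8, KRT18, KRT19, KRT5 and KRT17) lay above 1 TPM and summed to 8760 to 12400 TPM per library. Of 8 leukocyte markers CD68 and ITGAM alone reached a mean of 1 TPM, and the whole list summed to 25.3 to 33.4 TPM. Of 5 fibroblast markers COL1A1 reached that mean in all 4 groups and PDGFRB in Ctrl at 3 h, and of 4 endothelial markers CDH5 alone did, with sums of 10.1 to 17.3 TPM and 2.89 to 5.61 TPM. In such bulk libraries fewer cells that express a gene and less RNA per cell cannot be told apart. The depth of single libraries is not in the tables, and TPM totals of 997870 to 999300 keep nothing of it.

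**Figure D1:**
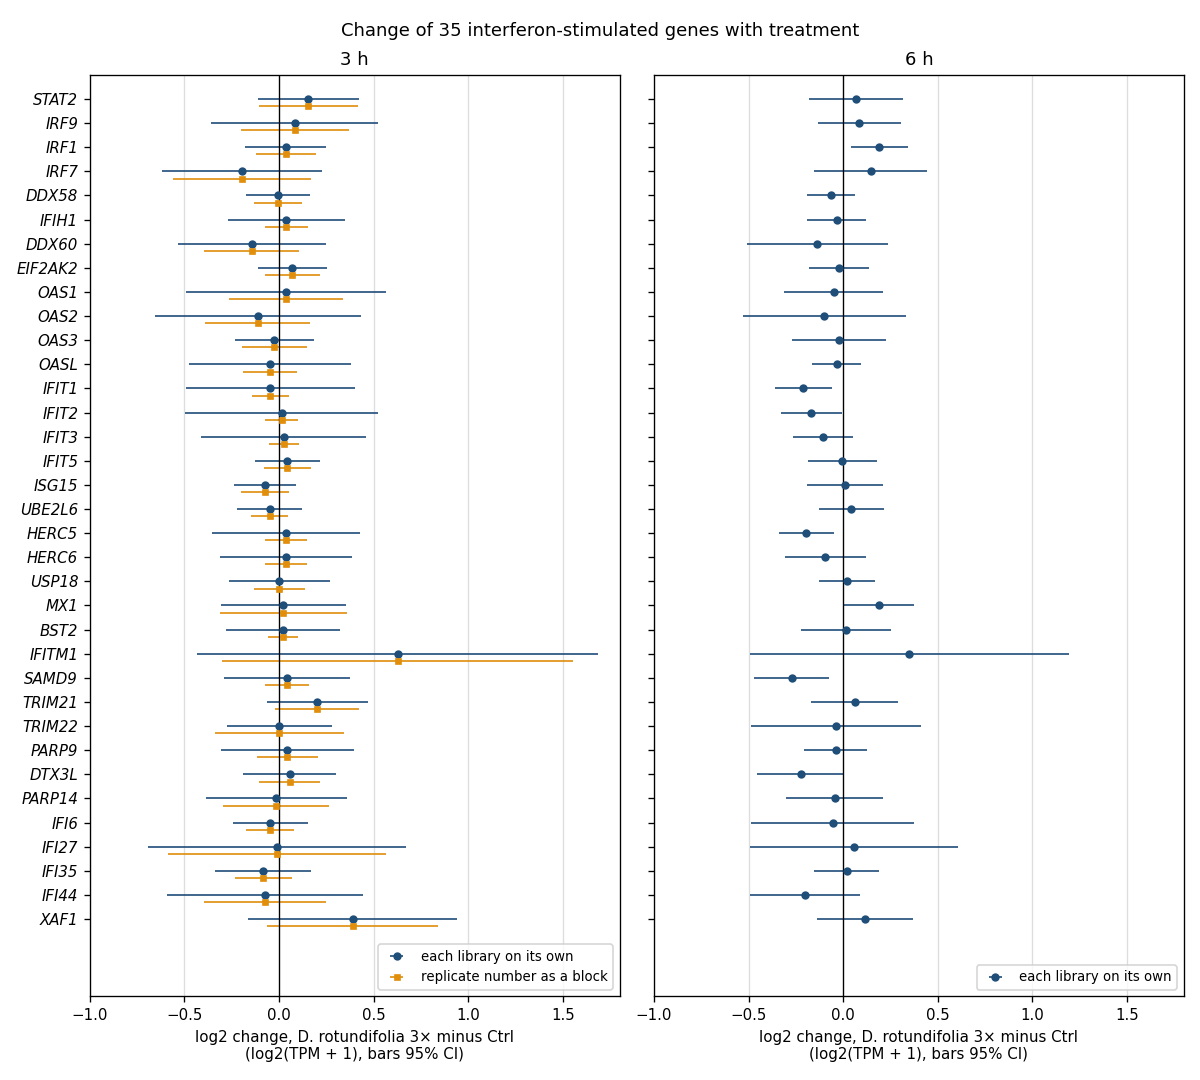
Log2 change of the 35 tested members (D. rotundifolia 3× minus Ctrl, horizontal axis) at 3 h and at 6 h, with 95% confidence intervals from 4 libraries per group, and for 3 h also with the replicate number as a block. Most intervals are centred near 0, those of 3 h shorten with the block in 33 of 35 members (MX1 and TRIM22 being the others), and IFITM1 has the widest interval at both times.

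The first comparison asked whether D. rotundifolia 3× changed these genes after 3 h, and no member was called by the test. With limma and Benjamini-Hochberg adjustment over all 12919 symbols, 0 of the 35 members were called at 0.05, against 0% of all symbols. A fit that called no symbol at all cannot tell an unchanged member from a change too small for it to call. The paper's own count-based test did call genes at 3 h. At an unadjusted p under 0.05 there were also 0 members, against 2.41% of all symbols. With the replicate number as a block, as the pairing check at 3 h allows, 0 members were called, against 0.00774% of all symbols, and the smallest adjusted p among the members was 0.737 with limma. The mean of log2(TPM + 1) was higher with treatment in 21 members and lower in 14, against 42.1% lower over all symbols. Counts of higher or lower means below use this scale too. The median change was 0.02 on the log2(TPM + 1) scale, the scale of all log2 changes below, against 0.02 over all symbols tested. This median was 0.12 without treated replicate 1 and −0.08 without Ctrl replicate 1. The data bounded the changes: the 95% confidence interval lay within ±0.5 in 25 of the 35 members, and in 31 with the block. In the blocked fit IRF7, IFITM1, IFI27 and XAF1 were the members whose interval went beyond that bound.

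The transcription factors of the response stayed within the spread of their libraries at 3 h. STAT2, the interferon-specific STAT, stood at 31.7, 32.7, 30.0 and 36.9 TPM in Ctrl replicates 1 to 4. With treatment it stood at 30.4, 45.0, 36.8 and 35.4 TPM. Both groups overlapped, and the log2 change was 0.15 (SE 0.12). IRF7, the factor that amplifies interferon gene transcription, had the most negative change of all members, −0.19 (SE 0.19), from 11.5, 10.3, 7.06 and 8.10 TPM in Ctrl to 7.18, 10.7, 7.93 and 6.08 TPM with treatment. Its TPM at 3 h was the sum of 2 gene IDs, ENSG00000185507 and ENSG00000276561, of which the second is not in the GENCODE 44 annotation used here. That second ID held most of the signal, with a mean normalized count of 318 against 69.1 for the first. Alone, it changed by −0.20 (SE 0.19). IRF9 and IRF1 changed by 0.08 and 0.04, with overlapping groups.

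Among the RNA sensors and the OAS family, whose enzymes make the activator of RNase L, DDX60 and OAS2 had the most negative changes. DDX60, a helicase that assists RNA sensing, stood at 20.5, 30.6, 23.9 and 23.2 TPM in Ctrl and at 15.4, 24.5, 23.9 and 25.2 TPM with treatment, a log2 change of −0.14 (SE 0.17). OAS2 stood at 3.41, 5.54, 3.53 and 5.03 TPM in Ctrl and at 2.18, 5.30, 3.56 and 5.34 TPM with treatment, a change of −0.11 (SE 0.24). In both genes the lowest of the 8 values was treated replicate 1, and without that library the changes turned to 0.01 and 0.10. The sensors DDX58 (RIG-I) and IFIH1 (MDA5) and the kinase EIF2AK2 (PKR), which halts translation on double-stranded RNA, changed by −0.01 to 0.07.

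The IFIT proteins, which bind foreign RNA and block its translation, were nearly equal in Ctrl and treated libraries of the same number. IFIT2 stood at 40.9, 66.6, 73.0 and 68.2 TPM in Ctrl replicates 1 to 4 and at 41.4, 68.3, 70.9 and 70.2 TPM in the treated ones. IFIT3 stood at 50.8, 78.0, 77.1 and 82.3 TPM and at 51.4, 81.1, 78.8 and 82.0 TPM, in the same order. In both genes replicate 1 was far below the other replicates in each group. IFIT1 stood at 35, 52.8, 55.6 and 56.7 TPM in Ctrl and at 33.5, 54.0, 53.1 and 53.2 TPM with treatment. The 95% interval of the IFIT1 change ran from −0.49 to 0.40 without the block and from −0.14 to 0.05 with it. For IFIT2 it ran from −0.50 to 0.52 and from −0.07 to 0.10.

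No ISG15 conjugation gene or restriction factor was called at 3 h. Means of log2(TPM + 1) with treatment were higher in 3 of 5 and 6 of 6 of them, against 7474 of all 12919 symbols. In TPM the means of 2 of these genes were slightly lower with treatment. USP18 had 8.88 TPM in Ctrl and 8.87 TPM with treatment, and TRIM22 had 6.78 and 6.73 TPM. ISG15 stood at 197, 230.0, 225 and 197 TPM in Ctrl and at 191, 195, 218 and 202 TPM with treatment, with overlapping groups. UBE2L6 and BST2 changed by −0.05 (SE 0.08) and 0.02 (SE 0.13), and USP18, the protease that removes ISG15 and damps receptor signalling, by 0.00 (SE 0.12). TRIM21, a cytosolic antibody receptor, was higher in the treated library of every pair, from 7.34, 8.0, 6.38 and 8.05 TPM to 7.49, 10.7, 8.41 and 8.39 TPM. IFIT5 was the other member higher in all 4 pairs, so that 2 of 35 members were, against 9.57% of all symbols, and 0 members were lower in all 4 pairs, against 5.95%. The groups of TRIM21 overlapped, its log2 change was 0.20 (SE 0.12), and limma gave it the smallest unadjusted p of the members, 0.121, with an adjusted p of 1.0. No member had groups that did not overlap in either direction, against 1.02% of all symbols for higher and 0.503% for lower.

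IFITM1 had the most positive change at 3 h, 0.63 (SE 0.47), and it came from 1 library. The gene stood at 0.259, 0.577, 0.680 and 0.401 TPM in Ctrl and at 0.446, 0.897, 5.91 and 0.399 TPM with treatment. Without treated replicate 3 its mean fell below 1 TPM and it was not tested. XAF1, a gene linked to apoptosis, came next with 0.39 (SE 0.24), from 4.45, 4.79, 3.21 and 4.65 TPM to 3.68, 9.54, 4.64 and 6.92 TPM, with overlapping groups. IFI35 stood at 72.6, 91.0, 71.6 and 79.5 TPM in Ctrl and at 67.2, 88.7, 75.1 and 66.3 TPM with treatment, a change of −0.08 (SE 0.11). The remaining tested members changed by less than these at 3 h in their direction.

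**Figure D2:**
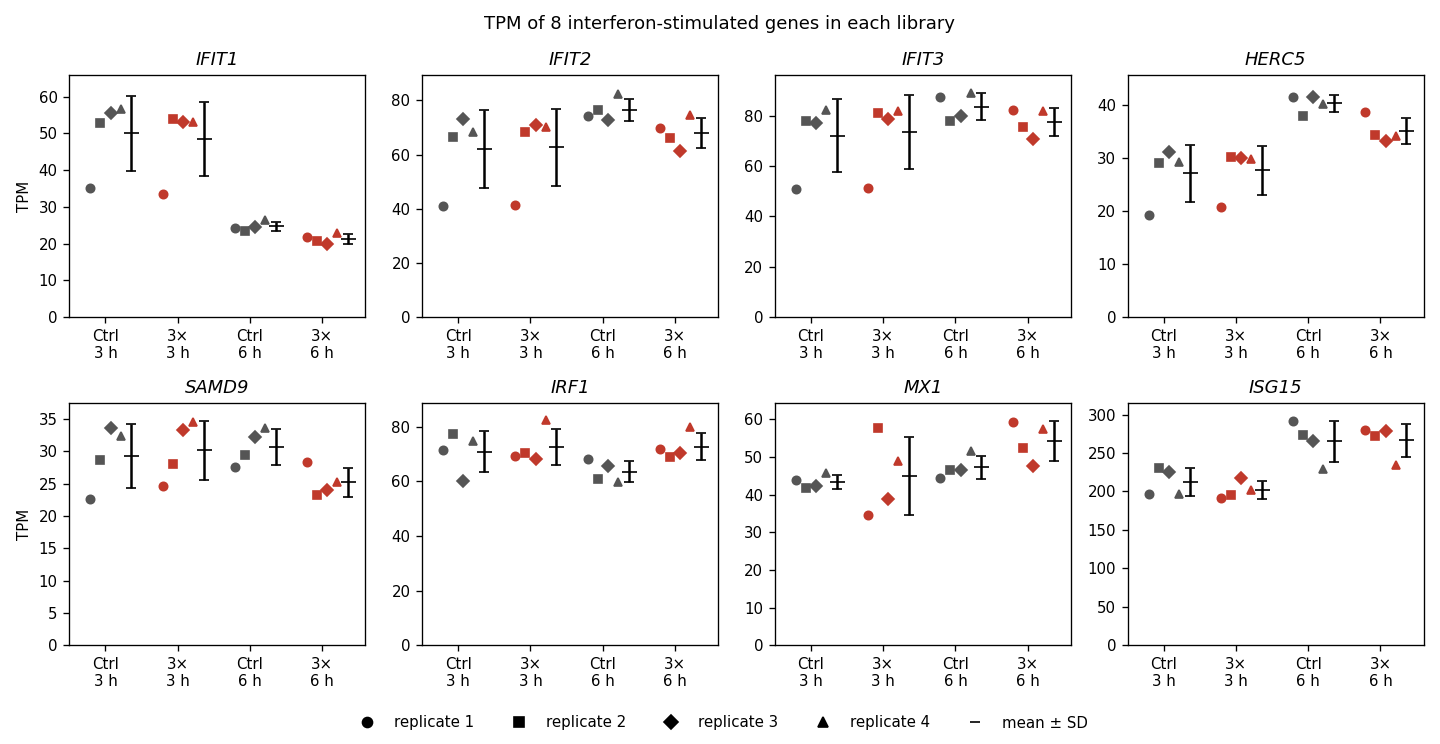
TPM (vertical axis, from 0) of 8 members in each library of the 4 groups, with the symbol giving the replicate and the bar the mean ± SD of 4 libraries. At 3 h replicate 1 is low in IFIT1, IFIT2, IFIT3, HERC5 and SAMD9 in Ctrl and with treatment alike, and at 6 h the IFIT1 libraries with treatment lie below all Ctrl libraries.

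At 3 h replicate 1 stood low in most members, in Ctrl and with treatment alike. Both libraries of replicate 1 were the lowest of their group in 23 of the 35 members, against 23.5% of all symbols. The mean of replicate 1 was below that of the other replicates in 33 of 35 members, and the median of their TPM ratios was 0.759, against 0.975 over all symbols. Both replicate 1 libraries were lowest in all 4 IFIT genes and in all 5 genes grouped here under ISG15 conjugation (ISG15, UBE2L6, HERC5, HERC6, USP18). They were also lowest in all 3 genes of the PARP9 module (PARP9, DTX3L, PARP14), which ADP-ribosylates or ubiquitinates in the interferon response. The 4 OAS genes and the 4 sensors lay at 0.593 to 0.925 of the other replicates. IRF1, IRF7, MX1 and TRIM22 were among the members whose replicate 1 libraries were not both lowest, with ratios of 0.974, 1.12, 0.854 and 1.11.

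The interferon genes themselves were also low in replicate 1 at 3 h, more steeply. IFNB1, which encodes interferon beta, stood at 0.657, 2.73, 3.48 and 3.39 TPM in Ctrl replicates 1 to 4 and at 0.907, 2.63, 3.48 and 2.64 TPM with treatment. IFNL1, a lambda interferon, stood at 2.43, 6.51, 7.88 and 5.65 TPM in Ctrl and at 2.81, 5.58, 6.91 and 6.78 TPM with treatment. IFNL3 stood at 1.14, 4.02, 4.12 and 3.87 TPM and at 1.15, 4.34, 4.55 and 5.06 TPM. Replicate 1 was the lowest of its group in both groups for all 4 expressed ligand genes, the fourth being IFNL2, at 0.256 to 0.400 of the other replicates. IFNL2 and IFNL3 are near-identical copies, so the split of reads between them is uncertain. Of 44 tested interferon-stimulated genes outside the members, 22 had both replicate 1 libraries lowest, against 23.5% of all symbols. The ratio of replicate 1 to the other replicates was below 1 in 31 of the 44, with a median of 0.878. The lowest ratios were those of the chemokine genes CXCL10 (0.409) and CXCL11 (0.448), singled out after their values were seen. Ratios above 1 included those of CD274 (1.55), GBP1 (1.46) and LAMP3 (1.2). At 6 h replicate 1 was not low in this way, and lay at 0.895 to 1.21 of the other replicates for the ligand genes. At that time 0 of 35 members had both replicate 1 libraries lowest, against 9.75% of all symbols. The epithelial marker sum of replicate 1 at 3 h was 12000 TPM in Ctrl and 11700 TPM with treatment, the highest of each group. What set replicate 1 apart was not tested.

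**Figure D3:**
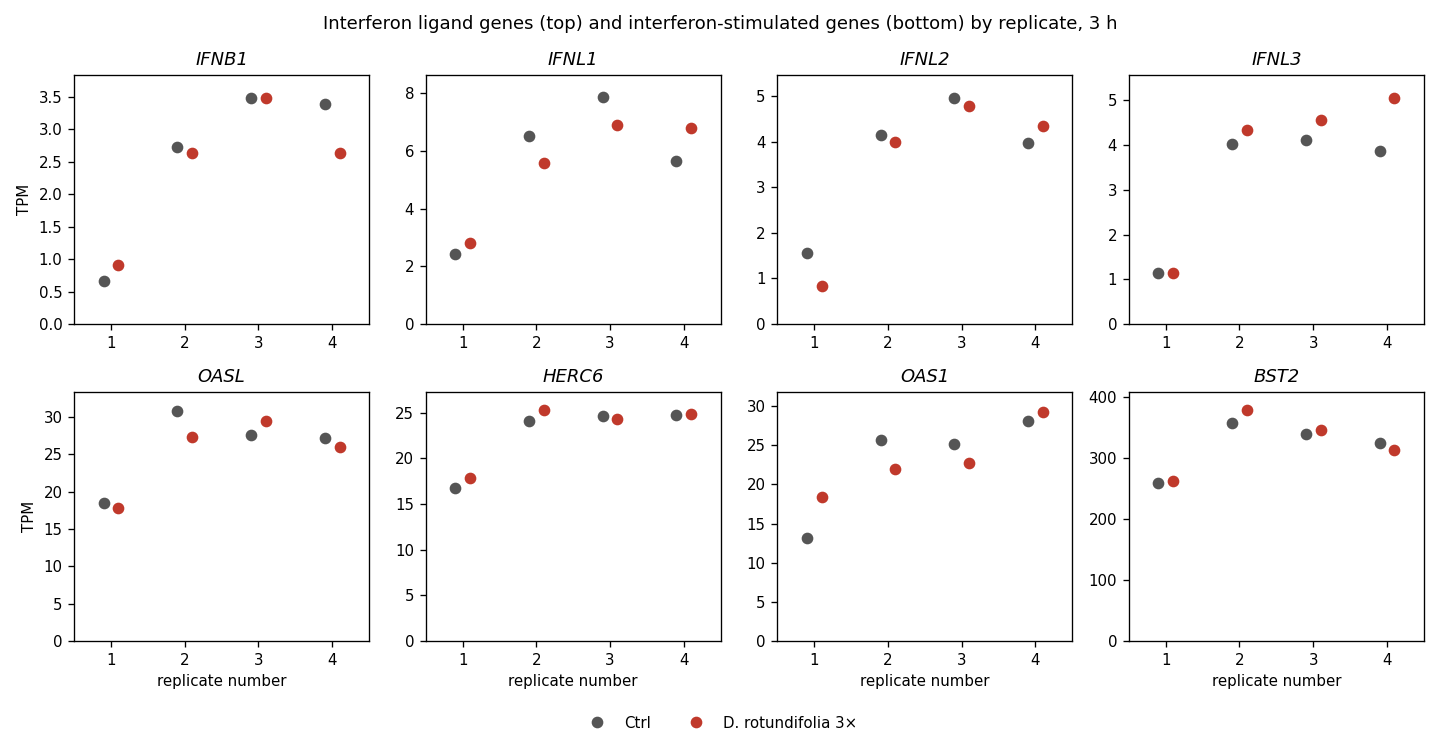
TPM (vertical axis, from 0) of 4 interferon ligand genes (top) and 4 interferon-stimulated genes (bottom) at 3 h by replicate number, with Ctrl and D. rotundifolia 3× as separate points, 1 library each. Replicate 1 is the lowest in both groups in all 8 genes, and the ligand genes fall further than the stimulated genes.

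**Figure D4:**
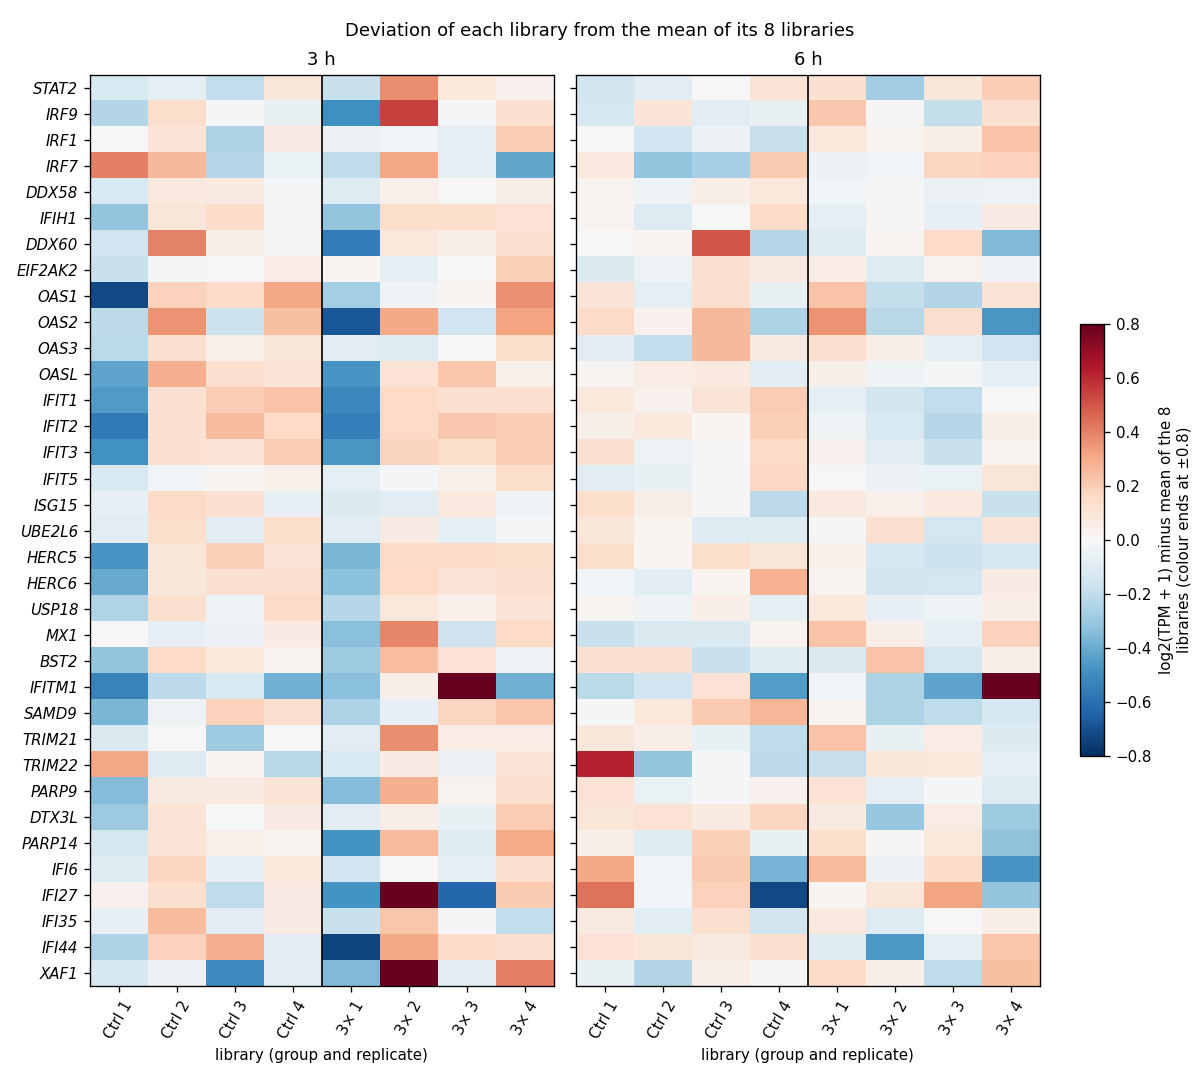
Deviation of each library from the mean of the 8 libraries of its time (colour, log2(TPM + 1)) for the 35 tested members at 3 h and 6 h. At 3 h Ctrl replicate 1 is below the mean in 31 members and treated replicate 1 in 34, and at 6 h the libraries are below it in 11 to 22 of the 35.

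After 6 h the same question had the same answer by the test, with 0 of 35 members called by limma at an adjusted p of 0.05, against 0.113% of all 14179 symbols. The smallest adjusted p of a member was 0.454. The mean was higher with treatment in 14 members and lower in 21, against 48.3% lower over all symbols, with a median change of −0.03 against 0.01. The lower means included all members of the IFIT, OAS and PARP9 groups and of the RNA sensors, some of them by little (IFIT5 by 0.00, OAS3 by −0.02, SE 0.11), and the higher ones all 4 transcription factors, a grouping made after the values were seen and not tested. At an unadjusted p under 0.05, 4 members were lower (SAMD9, IFIT1, HERC5 and IFIT2), against 2.69% of all symbols, and 2 were higher (IRF1 and MX1), against 5.34% of all symbols. The 95% interval lay within ±0.5 in 31 of 35 members, the others being DDX60, OAS2, IFITM1 and IFI27.

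IRF1 was the member with all treated libraries above all Ctrl libraries at 6 h. It stood at 68.0, 61.0, 65.6 and 59.6 TPM in Ctrl and at 71.9, 68.8, 70.3 and 79.7 TPM with treatment. The means were 63.6 ± 3.91 and 72.7 ± 4.82 TPM (SD, n = 4 each), and such separation upward was found in 3.43% of all symbols. The log2 change was 0.19 (95% CI 0.04 to 0.34), with an adjusted p of 0.516 by limma. IRF7, with 10.8, 7.98, 8.30 and 11.9 TPM in Ctrl and 9.83, 10.0, 11.6 and 11.7 TPM with treatment, changed by 0.14 (SE 0.13) with overlapping groups. STAT2 and IRF9 changed by 0.07 and 0.08.

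IFIT1 was the member with all treated libraries below all Ctrl libraries at 6 h, with 24.3, 23.4, 24.6 and 26.5 TPM in Ctrl and 21.7, 20.6, 19.8 and 22.8 TPM with treatment. Its means were 24.7 ± 1.33 and 21.2 ± 1.31 TPM (SD, n = 4 each), and such separation downward was found in 1.65% of all symbols. The log2 change was −0.21 (95% CI −0.36 to −0.06), with an adjusted p of 0.454 by limma. IFIT2 stood at 74.3, 76.3, 72.8 and 82.3 TPM in Ctrl and at 69.9, 66.1, 61.3 and 74.6 TPM with treatment, a change of −0.17 with an adjusted p of 0.604 by limma and overlapping groups. IFIT3 changed by −0.11 (95% CI −0.26 to 0.05) and IFIT5 by 0.00. The 4 genes lie on chromosome 10 in the span from IFIT2 (start 89283694) to IFIT5 (end 89421605, GENCODE 44, GRCh38).

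SAMD9, a restriction factor of poxviruses, had the most negative change at 6 h. It stood at 27.5, 29.4, 32.2 and 33.6 TPM in Ctrl and at 28.3, 23.2, 24.0 and 25.3 TPM with treatment, with treated replicate 1 inside the Ctrl range and the other 3 treated libraries below it. Its log2 change was −0.27 (95% CI −0.47 to −0.08), with an adjusted p of 0.459 by limma. DTX3L, the ubiquitin ligase partner of PARP9, stood at 24.9, 25.2, 24.5 and 26.3 TPM in Ctrl and at 24.5, 18.6, 24.3 and 18.9 TPM with treatment, so 2 of its treated libraries were low and 2 were near Ctrl. Its change was −0.23 (SE 0.10), and its span on chromosome 3 (start 122564338) overlaps that of PARP9 (end 122564577) on the opposite strand. IFI44 stood at 16.9, 16.6, 16.3 and 17.0 TPM in Ctrl and at 14.4, 11, 14.7 and 18.2 TPM with treatment, a change of −0.20 (SE 0.13). HERC5, the ligase that attaches ISG15, stood at 41.5, 38.0, 41.6 and 40.2 TPM in Ctrl and at 38.7, 34.3, 33.3 and 34.2 TPM with treatment. Treated replicate 1 alone reached the Ctrl range, and the change was −0.20 with an adjusted p of 0.470 by limma.

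MX1, the GTPase that traps viral nucleoproteins, had a higher mean with treatment at 6 h but was not called. It stood at 44.4, 46.5, 46.5 and 51.5 TPM in Ctrl and at 59.2, 52.3, 47.7 and 57.5 TPM with treatment, with treated replicate 3 inside the Ctrl range. Its log2 change was 0.19 (95% CI 0.01 to 0.38), with an adjusted p of 0.605 by limma. IFITM1 again took the largest positive value, 0.35 (SE 0.37), from 1 library, with 1.54, 1.65, 2.20 and 1.17 TPM in Ctrl and 1.91, 1.49, 1.20 and 6.76 TPM with treatment. Without treated replicate 4 the change was −0.06. The most abundant members were level at 6 h: BST2 changed by 0.01 (SE 0.10), ISG15 by 0.01 (SE 0.09), UBE2L6 by 0.04 (SE 0.08) and IFI35 by 0.02 (SE 0.07). ISG15 stood at 292, 273, 266 and 229 TPM in Ctrl and at 280.0, 272, 279 and 234 TPM with treatment, and its 95% interval ran from −0.19 to 0.21.

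The change at 6 h was then set against the change at 3 h as an interaction term over the 16 libraries. By limma 0 of 35 members were called, against 0.00792% of the 12623 symbols tested, all members had an adjusted p of 0.999, and at an unadjusted p under 0.05 there were 0 members as well, against 3.49% of all symbols. With the replicate number as a block, 0 members were called either, and 5 were lower at an unadjusted p under 0.05 (IFIT2, HERC5, SAMD9, IFIT1 and IFIT3), against 4.78% of all symbols, with adjusted p of 0.265 to 0.354 by limma. That fit also blocks the 6 h libraries, whose numbers did not pair them by the residual check.

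The genes upstream of and beside the members gave the same result, with no call by limma at either time in any of the lists. Of the 4 tested ligand genes, IFNB1 changed by −0.03 (SE 0.37) at 3 h and 0.16 (SE 0.10) at 6 h, IFNL1 by 0.00 (SE 0.33) and 0.16 (SE 0.13), and IFNL3 by 0.13 (SE 0.39) and 0.09 (SE 0.14). IFNA1 and IFNG are not among the listed symbols, and IFNE and IFNK had group means of at most 0.0835 TPM. The 6 receptor genes ranged from −0.10 (IFNLR1, SE 0.08) to 0.09 (IFNGR2, SE 0.06) at 6 h, with IFNGR1 at 0.04. Of the transducers and inhibitors, 8 were tested at 3 h and 9 at 6 h, and at 6 h 6 of these were higher and 3 lower. TYK2, a receptor-bound kinase, changed by 0.22 (SE 0.10), and the feedback inhibitors SOCS3 and SOCS1 by 0.21 (SE 0.10) and 0.22 (SE 0.13), each with an adjusted p of at least 0.627 by limma. Among 12 genes of nucleic acid sensing, all had higher means at 3 h, against 7474 of all 12919 symbols, with a median change of 0.04. At 6 h, 6 were higher and 6 lower. Of these, 2 were higher at an unadjusted p under 0.05 by limma, against 5.34% of all symbols. These were CGAS, the DNA sensor, with 10.8 ± 0.331 and 12.6 ± 0.112 TPM (SD, n = 4 each), and IRF3, the factor that starts interferon transcription, with 274 ± 17.9 and 336 ± 38.4 TPM (SD, n = 4 each). Their adjusted p was 0.370 and 0.419 by limma, and TICAM1 changed by 0.19 (SE 0.09). Among 46 other interferon-stimulated genes at 6 h, 19 were higher and 27 lower. At an unadjusted p under 0.05 by limma 3 were lower, against 2.69% of all symbols, and 1 was higher, against 5.34%. SAMHD1, which depletes nucleotides, changed by −0.20 (SE 0.06), APOL1 by −0.17 (SE 0.05) and HELZ2 by 0.29 (SE 0.10), with adjusted p of 0.376, 0.488 and 0.521 by limma.

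The Ctrl cultures of both times were compared last, to see how the members stood without the plant. By limma 11 of 35 members were higher at 6 h, against 9.61% of all 12623 symbols, and 2 were lower, against 9.93%. The median change was 0.29, against 0.02 over all symbols. A higher mean was found in 31 of 35 members, against 6675 of all 12623 symbols. Time and experiment cannot be told apart here, since the 3 h and 6 h cultures were separate. The count of higher members fell to 6 without Ctrl 3 h replicate 1, the library that was low in most members.

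The members that were higher in Ctrl at 6 h came from several roles. HERC5 was at 27.2 ± 5.36 TPM at 3 h and 40.3 ± 1.69 TPM at 6 h (SD, n = 4 each), a log2 change of 0.58 with an adjusted p of 0.00943 by limma. USP18 was at 8.88 ± 1.20 and 12.5 ± 0.517 TPM, a change of 0.46 with an adjusted p of 0.00361 by limma. The rise of USP18 was smaller in the authors' normalized counts, as given below. OAS2 was at 4.38 ± 1.07 and 9.03 ± 1.47 TPM, a change of 0.91, and XAF1 at 4.27 ± 0.726 and 8.93 ± 0.841 TPM, a change of 0.92, with adjusted p of 0.0125 and 0.00522 by limma. In these 4 genes all Ctrl libraries of 6 h lay above all those of 3 h. The same held for IFI27, DDX60, OASL, PARP14, UBE2L6 and DDX58 among the called members, but not for ISG15. Such separation was also present in uncalled members, STAT2, IRF9, IFIH1 and OAS1 among them. The called members had been picked by this same contrast, and the share of such separation over all symbols was not computed. IFI27, a mitochondrial and nuclear membrane protein, was at 7.69 ± 0.838 and 23.1 ± 7.42 TPM, a change of 1.42 with an adjusted p of 0.00361 by limma. Its 3 h value was the sum of 2 gene IDs (ENSG00000165949 and ENSG00000275214, the second outside GENCODE 44) against 1 ID at 6 h. The authors' mean normalized count of IFI27, over all 8 libraries of a time, was 37.5 at 3 h and 76.2 at 6 h. In proportion that rise was smaller than the rise in TPM. With 2 IDs at 3 h, IFI27 is not part of the comparison of reads per TPM below. The other 6 members called higher were DDX60 (0.68), OASL (0.54), PARP14 (0.51), ISG15 (0.32), UBE2L6 (0.29) and DDX58 (0.22).

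IFIT1 and TRIM22, a ubiquitin ligase with antiviral activity, were the 2 members called lower in Ctrl at 6 h, and in both the deposited read counts did not follow the TPM. IFIT1 was at 50.0 ± 10.1 TPM at 3 h and 24.7 ± 1.33 TPM at 6 h (SD, n = 4 each), a log2 change of −0.97 with an adjusted p of 0.000519 by limma. TRIM22 was at 6.78 ± 1.27 and 3.63 ± 1.47 TPM, a change of −0.78 with an adjusted p of 0.00518 by limma and overlapping groups. The authors' mean normalized count over all 8 libraries of a time was 3540 for IFIT1 at 3 h and 3720 at 6 h, and 138 and 130.0 for TRIM22. Relative to the median of 12272 symbols with 1 ID at both times, the 6 h over 3 h ratio of IFIT1 was 1.09 in mean normalized count and 0.461 in mean TPM, and that of TRIM22 was 0.975 and 0.513. Reads per TPM thus rose 2.39-fold for IFIT1 and 1.91-fold for TRIM22, more than for 99.5% and 99.1% of these symbols, whose 5th and 95th percentiles were 0.857 and 1.20. In all, 5 of the 33 members lay outside these percentiles, the others being STAT2 (1.25), USP18 (0.847) and IFITM1 (0.797). For USP18, called higher in Ctrl at 6 h, the ratio in mean normalized count was 1.18, below that in mean TPM. Reads per TPM depend on the transcript length that the quantification assigned, and the part of that length in these TPM changes was not tested. Within each time all libraries shared 1 table, and the treatment comparisons do not cross it. Of the 33 members with 1 ID at both times, 30 had a mean normalized count ratio above 1, the others being IFIT5, SAMD9 and TRIM22.

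**Figure D5:**
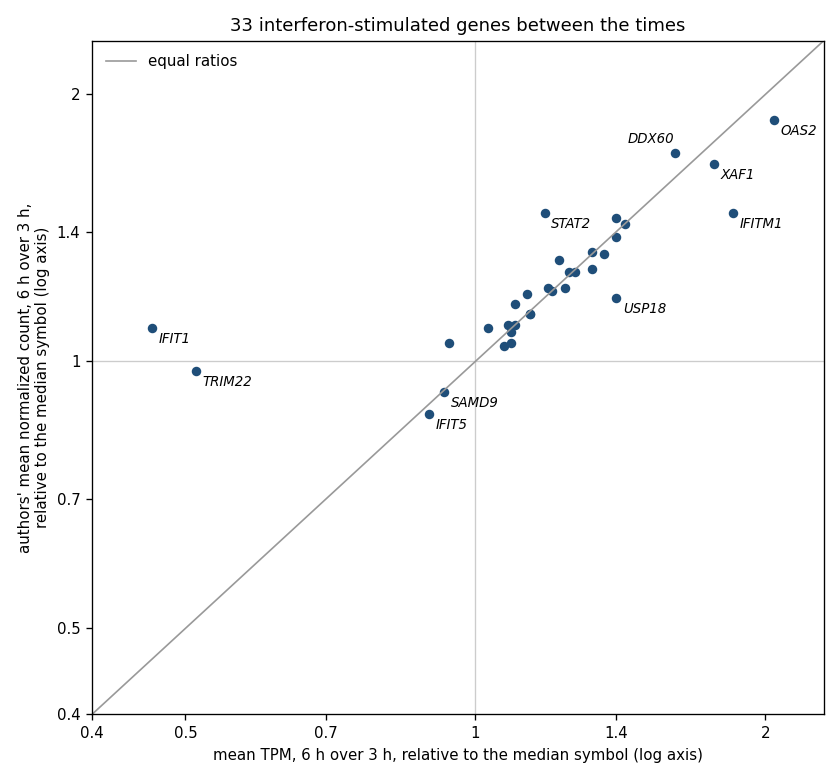
Ratio of 6 h over 3 h for 33 members in mean TPM (horizontal) and in the authors' mean normalized count (vertical), both over 8 libraries, relative to the median symbol and on log axes, with the line of equal ratios. Most members lie near the line and above 1, and IFIT1 (0.461 and 1.09) and TRIM22 (0.513 and 0.975) lie far to its left.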

How the data were processed

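RNA of 16 cultures was sequenced by the authors from stranded mRNA libraries. Per the paper and the submitters' processing notes, single-end reads were quantified by the authors with Salmon 0.13.1 against GENCODE 32 (GRCh38.p13), summed to genes with tximport and tested with DESeq2 1.22.2 in R 3.5.3. The deposited tables, 1 per time, hold TPM per gene and library and a signal column, the mean over the 8 libraries of the authors' normalized counts. The authors' log2 fold change with its standard error, the deposited test score and the deposited p-value columns hold the authors' own comparisons and were not used. Neither counts nor depth per library are in the tables, so no count model and no counting interval was possible.

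TPM of gene IDs with 1 symbol were summed. At 6 h 89 repeated rows with equal values were dropped. Symbols that averaged 1 TPM or more were tested on log2(TPM + 1) with limma 3.58.1 (R 4.3.3), two-sided, with a trend and Benjamini-Hochberg adjustment over all symbols, and called at 0.05. A fold change on this scale understates that of low genes. Each time was fitted alone, without a block (the paper names none), and the interaction and the Ctrl contrast used all 16 libraries. The fits were tested on simulated data with independent libraries, where recovery was required only for changes larger than those of the members. The paper ran Ctrl and treated cultures in parallel on shared plates, without saying which libraries shared one. Same-numbered libraries at 3 h correlated in their residuals at 0.469, 0.255, 0.219 and 0.187, all above 0.1, so their numbers were taken as pairs from the data, and at 6 h they were not. Alternatives were a pseudocount of 0.1, no filter, a filter at 5 TPM, quantile normalization, each gene ID alone, a joint fit, the block and leaving out each library. Tables and figures used Python 3.11.15 with pandas 2.3.3, numpy 2.4.6 and matplotlib 3.10.9, and coordinates are those of GENCODE 44.

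The members, the lists and the comparisons were chosen with earlier results of these data known. Members named with full values were, at each time, the 4 with the largest and the 4 with the smallest log2 change, the 5 with the highest mean TPM, and up to 5 in each direction by p in the Ctrl contrast, with up to 3 genes of each list by p at 6 h. IFIT2, HERC5 at 6 h, IRF9, IFIT5, IFNL2, IFIH1 and other members given for the replicate pattern were added after their values were seen. The paper calls the 3 h cultures biological replicates. Where nothing ties libraries to separate cultures, p-values measure only the spread between them.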

Additional observations from a re-analysis of the deposited data

Results flagged for a closer look

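Within-group outliers were screened in 144 groups of 4 libraries (36 genes, 4 groups), with Dixon's criterion, which chance alone passes in about 1 in 20 groups, and 16 groups passed. Of these, 10 were low values of 3 h replicate 1. In Ctrl, replicate 1 had 50.8 TPM of IFIT3 (other replicates 77.1 to 82.3), 16.8 TPM of HERC6 (24.1 to 24.7) and 8.55 TPM of PARP9 (11.8 to 12.1). With D. rotundifolia 3×, replicate 1 had 19.3 TPM of IFIH1 (26.4 to 26.9), 15.4 TPM of DDX60 (23.9 to 25.2), 33.5 TPM of IFIT1 (53.1 to 54.0), 41.4 TPM of IFIT2 (68.3 to 70.9), 51.4 TPM of IFIT3 (78.8 to 82.0), 20.8 TPM of HERC5 (29.9 to 30.2) and 17.8 TPM of HERC6 (24.3 to 25.3).

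The other 6 were spread over libraries. IFITM1 stood apart at 5.91 TPM in treated replicate 3 at 3 h (other replicates 0.399 to 0.897) and at 6.76 TPM in treated replicate 4 at 6 h (1.20 to 1.91). IFI44L stood apart at 0.194 TPM in Ctrl replicate 2 at 3 h (0.0 to 0.00561) and at 0.177 TPM in treated replicate 4 at 6 h (0.0132 to 0.0397). IRF1 was high, at 82.5 TPM, in treated replicate 4 at 3 h (68.1 to 70.5), and ISG15 was low, at 234 TPM, in treated replicate 4 at 6 h (272 to 280.0).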

How the results depend on the processing

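The count of members called with treatment was 0 in all 19 alternatives at 3 h, all 19 at 6 h and all 21 of the difference between times, replicate block included. With the replicate block the smallest adjusted p of a member by limma was 0.737 at 3 h, 0.217 at 6 h and 0.265 for the difference between times. The blocked fit at 6 h had 5 members lower at an unadjusted p under 0.05 by limma, against 4.80% of all symbols. These were IFIT1, IFIT2, IFIT3, HERC5 and SAMD9. It had 2 higher, IRF1 and MX1, against 8.28% of all symbols. Over all symbols at 3 h, 1 was higher with the replicate block, 1 with each gene ID alone and 2 with both times in one fit. At 6 h 7 were higher with no filter, and with the replicate block 38 were higher and 2 lower. For the difference between times 30 were higher and 2 lower with the block. At 6 h the residuals of same-numbered libraries correlated at 0.0564, 0.0973, 0.158 and 0.204, and 2 of the 4 numbers correlated best with their own partner. No paired analysis was possible for the Ctrl contrast because replicate numbers are nested within times. With libraries left out, the counts over all symbols ran from 0 to 1 higher and 0 to 2 lower at 3 h, from 2 to 44 higher and 0 to 3 lower at 6 h, and from 0 to 1 lower for the difference between times. In the Ctrl contrast they ran from 778 to 1312 higher, and the members higher from 6 to 14. Without a library the sign turned for DDX60 (−0.23 to 0.015), OAS2 (−0.23 to 0.10), BST2 (−0.077 to 0.12) and IFIT3 (−0.13 to 0.18) at 3 h, and for IFITM1 (−0.15 to 0.65), BST2 (−0.060 to 0.10), ISG15 (−0.060 to 0.068), UBE2L6 (−0.010 to 0.10) and IFI35 (−0.043 to 0.065) at 6 h. Changes that kept their sign also moved, among them IRF7 (−0.33 to −0.05), STAT2 (0.06 to 0.24) and XAF1 (0.18 to 0.59) at 3 h and IRF1 (0.12 to 0.23), MX1 (0.12 to 0.25) and IFI44 (−0.31 to −0.09) at 6 h. ISG15 at 6 h was −0.022 with quantile normalization. The causes were not tested. With 4 libraries a group the 95% interval of a member reached, at the median, 0.33 on either side of its change at 3 h and 0.21 at 6 h.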
